A study of Mus musculus with 10 samples.

Results

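The genes described are 31 genes of the sterol and fatty acid synthesis pathway that is controlled by the sterol regulatory element-binding proteins (SREBPs). They were taken from a list of names and matched to the array's probes by transcript accession. A probe was found for 30 of the 31, and all 30 were among the 22012 genes tested. Acat2, the cytosolic enzyme that joins acetyl-CoA units, was matched to no probe and has no value here. The 30 genes comprised 17 enzymes of sterol synthesis, 6 control genes and 7 enzymes of fatty acid synthesis. Expression was measured in bone marrow colonies carrying BCR-ABL, the oncogenic fusion kinase of chronic myeloid and some acute lymphoid leukaemias. Per the labels, marrow of donor mice aged 6 weeks was transduced with retrovirus, and colonies were picked after 10 days in methylcellulose without growth factors.

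The mutant groups were Cdk6-/- (n = 4), which lacks the cell cycle kinase CDK6, and Cdk6-K43M (n = 4), whose CDK6 carries a change known to remove kinase activity. Each of these 8 samples, in Cy5, was hybridised with the same pooled wild-type RNA in Cy3, made from 4 Cdk6+/+ samples. All groups, the wild type included, carried BCR-ABL. For each mutant genotype 1 further array, with the dyes exchanged, held the pool of its 4 samples, which gave 10 arrays on 3 slides. Values below are log2 ratios of a mutant sample to the wild-type pool, so that 0 is the level of the pool and a positive value is a higher level than in it. RNA came from picked colonies, and how many colonies, cultures or animals stand behind a sample is not stated, so p-values measure the spread between these samples only.

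Cells make cholesterol from acetyl-CoA through mevalonate, farnesyl diphosphate, squalene and lanosterol. When membrane sterol is low, SCAP carries the SREBPs from the endoplasmic reticulum to the Golgi, where they are cut, and their released part enters the nucleus and raises transcription of the enzymes. When sterol is high, the INSIG proteins hold SCAP back. SREBP-2 acts mainly on sterol genes and SREBP-1 mainly on fatty acid genes, and Insig1 is itself a target; dividing blood cells need both products for new membrane.

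Promoter sequence is shown for 5 of the genes, chosen after their values were seen. Hmgcs1 and Idi1 were taken as enzymes whose level differed widely between samples. Cyp51 and Insig1 were taken as the genes called lower in Cdk6-K43M, and Tm7sf2 as an enzyme called higher in both mutants. Scap, also called higher in both, is not shown. Each sequence is the 250 bases before the annotated start, 5′ to 3′ on the gene's strand, from RefSeq's GRCm38.p6: Hmgcs1 (chr13:119690101-119690350, plus strand), Idi1 (chr13:8885356-8885605, plus strand), Cyp51 (chr5:4104698-4104947, minus strand), Insig1 (chr5:28071162-28071411, plus strand) and Tm7sf2 (chr19:6067851-6068100, minus strand). Capitals mark 4 motifs searched on both strands: TCACNCCAC, a form of the sterol regulatory element; CCAAT, bound by NF-Y; GGGCGG, bound by Sp1; and CACGTG, an E-box.
Hmgcs1: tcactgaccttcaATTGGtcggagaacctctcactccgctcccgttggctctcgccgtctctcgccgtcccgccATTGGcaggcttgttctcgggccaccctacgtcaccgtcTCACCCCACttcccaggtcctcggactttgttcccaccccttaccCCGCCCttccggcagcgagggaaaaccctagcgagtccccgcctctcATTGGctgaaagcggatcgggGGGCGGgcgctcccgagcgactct
Idi1: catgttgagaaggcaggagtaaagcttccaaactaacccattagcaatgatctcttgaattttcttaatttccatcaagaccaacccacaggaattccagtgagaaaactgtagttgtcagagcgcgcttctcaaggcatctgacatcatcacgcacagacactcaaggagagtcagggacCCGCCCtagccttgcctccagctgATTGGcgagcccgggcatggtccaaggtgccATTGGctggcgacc
Cyp51: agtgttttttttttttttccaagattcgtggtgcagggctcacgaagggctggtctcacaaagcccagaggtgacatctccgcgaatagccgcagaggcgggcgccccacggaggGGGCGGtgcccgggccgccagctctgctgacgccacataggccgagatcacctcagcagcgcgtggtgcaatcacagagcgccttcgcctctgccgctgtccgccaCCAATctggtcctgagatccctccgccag
Insig1: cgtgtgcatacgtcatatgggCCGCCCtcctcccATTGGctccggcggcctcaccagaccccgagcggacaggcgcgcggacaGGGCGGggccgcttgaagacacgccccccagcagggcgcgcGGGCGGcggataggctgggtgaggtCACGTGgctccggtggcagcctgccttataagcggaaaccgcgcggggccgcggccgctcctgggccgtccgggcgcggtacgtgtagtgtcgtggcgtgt
Tm7sf2: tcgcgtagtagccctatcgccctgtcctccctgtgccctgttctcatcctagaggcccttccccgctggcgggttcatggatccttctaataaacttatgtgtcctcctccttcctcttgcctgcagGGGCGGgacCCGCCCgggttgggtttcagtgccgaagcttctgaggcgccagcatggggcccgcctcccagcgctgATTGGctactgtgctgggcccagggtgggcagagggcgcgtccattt

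Windows of 300 bases (250 before and 50 after a start) were held for 24 of the 31 genes, in 32 windows. CCAAT was found in 20 of the 32 windows (62.5%) and in 37.4% of all 32851 windows of the same length. GGGCGG was found in 24 (75%), against 35.7% of all windows, and CACGTG in 6 (18.8%), against 7.15%. TCACNCCAC was found in 1 of the 32 windows, that of Hmgcs1, with its first base at position -137 relative to the start, and in 1.24% of all windows. In the printed sequences Hmgcs1 held CCAAT 3 times, Idi1 2 times, and Cyp51, Insig1 and Tm7sf2 1 time each. The windows of a gene can overlap, and these matches describe the letters of the windows only.

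The probe standing for each of the 30 genes exceeded background in the mutant and the wild-type channel on all 10 arrays, and no spot was saturated. In the mutant channel 46.9 to 49.9% of all probes were well above background. Of 10 B-lineage markers, all were kept by the filter on dim probes, as were 13 of 14 myeloid, 5 of 8 T and NK, 4 of 8 erythroid and megakaryocyte and 3 of 9 adipocyte, stromal and endothelial markers. Among the last, Adipoq, Plin1, Cxcl12, Col1a1, Pdgfrb and Cdh5 were not kept. Of the myeloid markers, S100a8, Camp and Mpo were well above background in the mutant channel of 1 of 10 arrays and Ngp of 0. These were kept through the wild-type channel alone. Their mutant values lie mostly near background, so their ratios do not measure how low the level was. In bulk samples fewer cells of a type and less RNA per cell cannot be told apart. The probe of Cdk6 read from -0.40 to 0.0024 in the 4 Cdk6-/- samples and from 0.31 to 0.83 in the 4 Cdk6-K43M samples. It was well above background in all of them, and since the sources used here do not place it relative to the deleted part, it does not check the labels. Some samples stood apart. Eif2s3y, a Y-linked gene, was not well above background in Cdk6-/- replicates 2 and 3 and Cdk6-K43M replicate 2 (log2 ratios -5.42, -5.20 and -5.29), and Kdm5d, also Y-linked, was low in Cdk6-/- replicate 2 alone (-2.05). The Y-linked Ddx3y and Uty were well above background in every mutant sample, these included. The probe of the X-linked Xist was well above background in none. The sex of the samples was not tested. In Cdk6-K43M replicate 4 the myeloid markers were split: 5 of 13 were above the pool, among them Lyz2 at 2.24 and Cd68 at 1.76, and 8 were below it, among them S100a8 at -2.47 and S100a9 at -3.48. Lyz2 and Cd68 were at or below -0.0011 and -0.31 in the other 7 single samples; these 4 markers were chosen after their values were seen.

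Few of the pathway's genes differed from the wild-type pool past the test's threshold, an adjusted p under 0.05 in limma with Benjamini-Hochberg adjustment over all 22012 genes. In Cdk6-/- the count was 2 of 30 genes, both higher, namely Tm7sf2 (chr19:6062821-6067850) and Scap (chr9:110333288-110384949), with gene positions on GRCm38.p6. Over all genes 7.24% were called in that comparison, 3.38% higher and 3.85% lower. In Cdk6-K43M the count was 5 of 30 genes: Tm7sf2, Scap and Acaca (chr11:84129635-84401651) rose, and Insig1 (chr5:28071412-28078662) and Cyp51 (chr5:4080674-4104697) fell. The share over all genes was 20.1% there, with 9.79% higher and 10.3% lower. The shares of the 30 genes, 6.67% and 16.7%, are near those of all genes, so neither count is a result about this pathway. The median fitted log2 change of the 30 genes was 0.13 in Cdk6-/- and 0.083 in Cdk6-K43M, where the medians of all genes were 0.0014 and -0.010. These medians move with the dye term and the scaling: that of the 17 sterol enzymes was 0.13 and 0.044 as fitted, 0.033 and -0.071 without the swapped arrays and the dye term, and 0.16 and 0.24 with median centring. Both comparisons share the wild-type pool and 1 estimate of the spread, and the pool's own spread is left out. With standard errors widened for a pool of 4 samples that vary like the mutants, 0 genes of the pathway were called by limma in either mutant (130 and 1271 of all genes). The Cdk6-/- count was 1 without Cdk6-/- replicate 1 or 2 or Cdk6-K43M replicate 3 or 4, and 3 without Cdk6-K43M replicate 1. The Cdk6-K43M count was 3 without Cdk6-/- replicate 1 or Cdk6-K43M replicate 3 or 4, and 8 without Cdk6-/- replicate 4. Without Cdk6-K43M replicate 1 it was 5 again, but with 1 higher and 4 lower in place of 3 and 2. With median centring in place of loess, which moved the median of all genes on an array by up to 0.55, the Cdk6-K43M count was 13, with 12 higher and 1 lower.

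**Figure D1:**
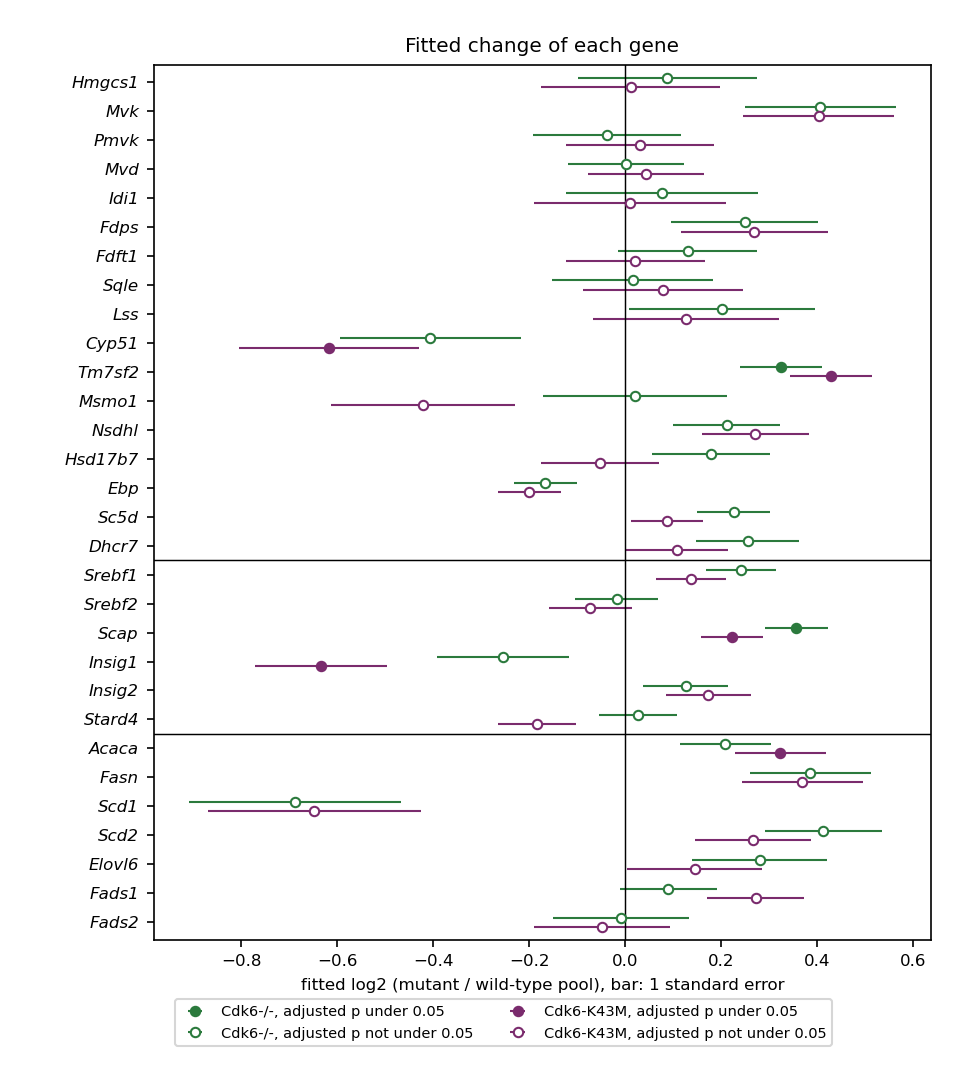
Fitted log2 change of each of the 30 genes (y axis, grouped as sterol enzymes, SREBP control genes and fatty acid enzymes from top to bottom) against the wild-type pool, for Cdk6-/- (green) and Cdk6-K43M (purple). Bars are 1 standard error, and filled points had an adjusted p under 0.05: 2 genes in Cdk6-/- and 5 in Cdk6-K43M.

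The enzymes from acetyl-CoA units to squalene showed no call in any comparison. Hmgcs1, which makes HMG-CoA ahead of mevalonate, had log2 ratios of 0.061, -0.40, -0.48 and 0.42 in Cdk6-/- replicates 1 to 4. In Cdk6-K43M it had 0.42, -0.77, -0.37 and -0.025, and the swapped pools read 0.26 and 0.22. Replicate 4 of Cdk6-/- and replicate 1 of Cdk6-K43M were highest, and the genotypes overlapped over nearly their whole range. The fitted change was 0.088 (SE 0.187, adjusted p = 0.813 by limma) in Cdk6-/- and 0.012 (SE 0.187, adjusted p = 0.975) in Cdk6-K43M.

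Mvk, mevalonate kinase, had 0.26, 0.063, -0.23 and 0.81 in Cdk6-/- and 0.59, 0.024, -0.11 and 0.45 in Cdk6-K43M. It was the sterol enzyme with the highest fitted value in Cdk6-/- (0.41, SE 0.158, adjusted p = 0.145 by limma), and its value in Cdk6-K43M (0.40, adjusted p = 0.102) did not pass either. Mvk passed in Cdk6-K43M without Cdk6-/- replicate 4 (0.43, adjusted p = 0.0394 by limma), as did Nsdhl (0.29, adjusted p = 0.0292), and with median centring (0.61, adjusted p = 0.0173). Its other kept probe had means of 0.052 and 0.065 over the 4 samples of each genotype, against 0.23 and 0.24 on the brighter probe. Idi1, the isopentenyl diphosphate isomerase, ranged most widely of the sterol enzymes around its fit, with 0.017, -0.70, -0.54 and 0.56 in Cdk6-/- and 0.31, -0.49, -0.56 and -0.065 in Cdk6-K43M. Its residual SD, the spread left after genotype and dye, was 0.462 and larger than that of 95.4% of genes. Pmvk and Mvd, the kinase and decarboxylase that follow mevalonate kinase, had fitted values of -0.037 and 0.0016 in Cdk6-/- and 0.030 and 0.044 in Cdk6-K43M. Fdps, which makes farnesyl diphosphate, had 0.25 and 0.27, and Fdft1, which joins 2 of these to squalene, 0.13 and 0.022.

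Sqle, squalene epoxidase, a rate-limiting step of the later pathway, had 0.083, -0.32, -0.59 and 0.15 in Cdk6-/-. In Cdk6-K43M it had 0.53, -0.62, -0.17 and -0.10. The sample order was again that of Hmgcs1, with fitted values of 0.016 (SE 0.167, adjusted p = 0.966 by limma) and 0.080 (adjusted p = 0.789). Lss, which closes the rings to lanosterol, had the highest single value of the sterol enzymes, 0.91 in Cdk6-/- replicate 4, beside 0.50, 0.044 and -0.32 in replicates 1 to 3. In Cdk6-K43M Lss had 0.77, -0.20, 0.028 and 0.37. Its fitted values were 0.20 and 0.13, and its 3 kept probes had positive means in both genotypes.

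Of the enzymes after lanosterol, Cyp51 fell in Cdk6-K43M and Tm7sf2 rose in both mutants. Cyp51, the lanosterol demethylase, had 0.015, -1.16, -0.90 and -0.71 in Cdk6-K43M, so that 3 samples lay well below the pool and replicate 1 at its level. In Cdk6-/- it had -0.37, -0.81, -0.92 and -0.0020, which overlaps the other genotype. The fitted level in Cdk6-K43M was 0.652 times that of the pool (log2 -0.62, SE 0.189, adjusted p = 0.0445 by limma), and in Cdk6-/- 0.755 times (log2 -0.41, adjusted p = 0.217). Its dimmer probe had means of -0.39 and -0.17, in the same direction and smaller. The call in Cdk6-K43M was lost without Cdk6-K43M replicate 2 (adjusted p = 0.0919), 3 (0.0904) or 4 (0.0686), and without Cdk6-/- replicate 1 (0.0644) or 2 (0.0502). It was held in 7 of 19 alternative settings, and among those that ended it were slide as a block (-0.51, adjusted p = 0.102 by limma) and median centring (-0.43, adjusted p = 0.123).

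Tm7sf2, a sterol C14 reductase that acts on the product of Cyp51, was above the pool on all 10 arrays on its brighter probe. It had 0.16, 0.16, 0.59 and 0.38 in Cdk6-/- and 0.21, 0.61, 0.55 and 0.36 in Cdk6-K43M, with 0.34 and 0.41 on the swapped arrays. Its fitted level was 1.25 times that of the pool in Cdk6-/- (log2 0.33, SE 0.0856, adjusted p = 0.0494 by limma) and 1.35 times in Cdk6-K43M (log2 0.43, adjusted p = 0.00713). The samples ran in another order than for most enzymes of the pathway, with Cdk6-/- replicate 3 and Cdk6-K43M replicate 2 highest. In Cdk6-/- the call was held in 3 of 19 alternative settings and was lost on leaving out any single sample but Cdk6-K43M replicate 2 (adjusted p up to 0.0853 by limma), and with slide as a block (0.28, adjusted p = 0.0921). It was also lost with the mean of the gene's kept probes (0.23, adjusted p = 0.1055 by limma). In Cdk6-K43M the call was held in 18 of 19. Of the 30 genes, each on its brightest probe, Tm7sf2 and Acaca were above 0 on all 10 arrays and Insig1 was below 0 on all 10, where 4.41% and 5.92% of all genes were. The dimmer probe of Tm7sf2 was below 0 in Cdk6-/- replicate 2 (-0.034) and the Cdk6-/- swapped pool (-0.0034). A dimmer kept probe of Acaca was below 0 in Cdk6-/- replicates 1 (-0.10) and 3 (-0.14) and Cdk6-K43M replicate 3 (-0.20).

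Msmo1, the C4 sterol oxidase, had 0.12, -1.19, -0.97 and -0.41 in Cdk6-K43M and -0.047, -0.56, -0.31 and 0.22 in Cdk6-/-. Its fitted value in Cdk6-K43M was -0.42 (SE 0.192, adjusted p = 0.157 by limma), and 0.022 in Cdk6-/-. It passed without Cdk6-K43M replicate 1 (-0.57, adjusted p = 0.036 by limma), as did Ebp (-0.24, adjusted p = 0.0324). Nsdhl and Hsd17b7, which remove the C4 methyl groups with it, had 0.27 and -0.052 in Cdk6-K43M and 0.21 and 0.18 in Cdk6-/-. Ebp, the sterol isomerase, had -0.20 (adjusted p = 0.0559) and -0.17, with a residual SD of 0.124, the lowest of the sterol enzymes. The other kept probe of Ebp had means of the opposite sign, 0.0094 over the Cdk6-K43M samples and 0.078 over the Cdk6-/- samples. On the brighter probe these means were -0.18 and -0.13. Sc5d and Dhcr7, the enzymes of the last steps, had 0.23 and 0.26 in Cdk6-/- and 0.087 and 0.11 in Cdk6-K43M. None of these passed the test.

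Among the control genes, Scap rose in both mutants and Insig1 fell in Cdk6-K43M. Scap, the sterol sensor that escorts the SREBPs, had 0.31, -0.092, 0.24 and 0.23 in Cdk6-/- and 0.12, 0.018, 0.048 and -0.0051 in Cdk6-K43M. The swapped arrays read higher, at 0.55 and 0.39. The fitted level was 1.28 times that of the pool in Cdk6-/- (log2 0.36, SE 0.0648, adjusted p = 0.0137 by limma) and 1.17 times in Cdk6-K43M (log2 0.22, adjusted p = 0.0366). Without both swapped arrays and the dye term both calls were lost, with 0.17 (adjusted p = 0.122 by limma) in Cdk6-/- and 0.045 (adjusted p = 0.678) in Cdk6-K43M. The Cdk6-K43M call was also lost without Cdk6-K43M replicate 1 (adjusted p = 0.082), 2 (0.0593) or 3 (0.0685).

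Insig1, which retains SCAP in the endoplasmic reticulum and is a target of the SREBPs, was below the pool in every sample. It had -0.12, -1.20, -0.88 and -0.59 in Cdk6-K43M and -0.21, -0.45, -0.31 and -0.19 in Cdk6-/-, with -0.53 and -0.26 on the swapped arrays. In Cdk6-K43M 3 samples lay below all 4 Cdk6-/- samples, while replicate 1 lay above them. The fitted level in Cdk6-K43M was 0.645 times that of the pool (log2 -0.63, SE 0.138, adjusted p = 0.0105 by limma), and this call was lost in 1 of 19 alternative settings, the widened standard errors (adjusted p = 0.0896). In Cdk6-/- the fitted log2 change was -0.25 (SE 0.138, adjusted p = 0.281).

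Insig2, the second retention protein, was above the pool in all 8 single samples, with 0.41, 0.34, 0.61 and 0.083 in Cdk6-/- and 0.22, 0.44, 0.65 and 0.30 in Cdk6-K43M. Both swapped arrays read below it (-0.12 and -0.039). The fit with a dye term gave 0.13 (SE 0.0888, adjusted p = 0.411 by limma) and 0.17 (adjusted p = 0.205), and without the swapped arrays 0.36 (adjusted p = 0.0337) and 0.40 (adjusted p = 0.0142). All 3 kept probes of Insig2 had positive means in both genotypes, from 0.20 to 0.40. Whether the dye or the genotype accounts for this was not tested.

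The transcription factor genes showed no call. Srebf1, which encodes SREBP-1, had 0.27, 0.12, -0.085 and 0.11 in Cdk6-/- and 0.24, -0.17, 0.0080 and -0.024 in Cdk6-K43M, with fitted values of 0.24 (SE 0.0733, adjusted p = 0.0764 by limma) and 0.14 (adjusted p = 0.226). It passed in Cdk6-/- without Cdk6-/- replicate 3 (0.28, adjusted p = 0.0495), and with slide as a block in Cdk6-/- (0.29, adjusted p = 0.0364) and Cdk6-K43M (0.20, adjusted p = 0.0489). Without the swapped arrays and the dye term it had 0.10 and 0.015. Srebf2, which encodes SREBP-2, had -0.27, -0.35, -0.23 and 0.059 in Cdk6-/- and -0.44, -0.42, 0.0065 and -0.20 in Cdk6-K43M. Its swapped arrays read 0.15 and 0.14, and the fitted values were -0.017 (adjusted p = 0.924) and -0.072 (adjusted p = 0.614). Stard4, a carrier that moves sterol between membranes, had 0.026 in Cdk6-/- and -0.18 in Cdk6-K43M, and its 2 kept probes had means of opposite sign in Cdk6-K43M (-0.082 and 0.18).

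Among the fatty acid enzymes Acaca rose in Cdk6-K43M and no gene was called in Cdk6-/-. With slide as a block Fasn and Scd2 were called in both mutants, higher, and Acaca was not (adjusted p = 0.0646 by limma in Cdk6-K43M). Acaca, acetyl-CoA carboxylase, which makes malonyl-CoA for chain growth, had 0.53, 0.18, 0.14 and 0.46 in Cdk6-K43M and 0.20, 0.014, 0.094 and 0.57 in Cdk6-/-. The fitted level in Cdk6-K43M was 1.25 times that of the pool (log2 0.32, SE 0.0954, adjusted p = 0.0386 by limma). Its 4 kept probes had means between 0.043 and 0.42 there, and their mean gave 0.20 (adjusted p = 0.109). The call was lost without Cdk6-K43M replicate 1 (adjusted p = 0.0883) or 4 (0.0733), or Cdk6-/- replicate 1 (0.0571).

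Fasn, fatty acid synthase, had 0.42, -0.0098, -0.12 and 0.48 in Cdk6-/- and 0.64, 0.013, -0.015 and 0.080 in Cdk6-K43M. In each genotype the level was high in some samples and at the pool's level in the others: replicates 1 and 4 in Cdk6-/-, replicate 1 alone in Cdk6-K43M. The swapped arrays read 0.58 and 0.56. The fitted values of 0.39 (SE 0.126, adjusted p = 0.093 by limma) and 0.37 (adjusted p = 0.0643) did not pass. Without the swapped arrays and the dye term they were 0.19 (adjusted p = 0.35) and 0.18 (adjusted p = 0.368), and with slide as a block 0.49 (adjusted p = 0.0442) and 0.45 (adjusted p = 0.0255). Fasn passed in Cdk6-/- without Cdk6-K43M replicate 1 (0.41, adjusted p = 0.0485).

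Scd1 and Scd2 encode stearoyl-CoA desaturases, which put the double bond into saturated chains, and their genes lie near each other on chromosome 19 (chr19:44394450-44407709 and chr19:44293676-44306864, GRCm38.p6). Scd1 had -1.23, -0.77, -1.21 and 0.14 in Cdk6-/- and -0.60, -0.67, -1.38 and -0.32 in Cdk6-K43M. Scd2 had 0.54, 0.10, 0.072 and 0.36 in Cdk6-/- and 0.59, -0.093, 0.14 and -0.18 in Cdk6-K43M. Scd1 was thus below the pool in 7 of the 8 single samples and Scd2 above it in 6 of 8; the difference between the genes was not tested. The fitted values of Scd1 were the lowest of the 30 genes in both mutants, -0.69 (SE 0.222, adjusted p = 0.091 by limma) and -0.65 (adjusted p = 0.066), and its residual SD, 0.514, was the largest. Scd1 passed without Cdk6-/- replicate 4 in Cdk6-/- (-0.88, adjusted p = 0.02) and in Cdk6-K43M (-0.60, adjusted p = 0.0249). Scd2 had fitted values of 0.41 (SE 0.121, adjusted p = 0.0702), the highest of the 30 in Cdk6-/-, and 0.27 (adjusted p = 0.155), and it passed in Cdk6-/- without Cdk6-K43M replicate 1 (0.44, adjusted p = 0.0315). With slide as a block Scd2 passed in both mutants (0.51, adjusted p = 0.0204 by limma, and 0.38, adjusted p = 0.0228). With the single arrays alone it had 0.27 (adjusted p = 0.184) and 0.12 (adjusted p = 0.556).

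Elovl6, which lengthens the chains, had 0.28 and 0.14, with 1 low sample, Cdk6-K43M replicate 4 (-0.59). Fads1 and Fads2 make the further double bonds of polyunsaturated fatty acids. Fads1 had 0.091 and 0.27 (adjusted p = 0.0846), and Fads2 -0.0081 and -0.048. Fads1 passed in Cdk6-K43M without replicate 2 (0.34, adjusted p = 0.0391 by limma). Fads2 stood at 0.59 in Cdk6-/- replicate 4 and between -0.49 and 0.16 in the other 7 single samples.

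No gene of the pathway differed between the mutants. In Cdk6-K43M against Cdk6-/-, fitted on the 8 single samples, 0 of 30 genes passed, where 0.513% of all genes did by limma. Before adjustment 1 of the 30 had a limma p under 0.05, Stard4, which was lower in Cdk6-K43M. Its other kept probe had means of 0.078 over the Cdk6-/- samples and 0.18 over the Cdk6-K43M samples, the opposite direction. The values of the genotypes overlapped for all 30, and 8.17% of all genes had no overlap. The lowest differences, Cdk6-K43M minus Cdk6-/-, were those of Msmo1 (-0.44, SE 0.284, adjusted p = 0.52 by limma), Insig1 (-0.41, SE 0.203, adjusted p = 0.404), Stard4 (-0.27, SE 0.113, adjusted p = 0.335) and Hsd17b7 (-0.25, SE 0.182, adjusted p = 0.564). The highest were Fads1 (0.14), Tm7sf2 (0.11), Acaca (0.11) and Nsdhl (0.097). Within the slides that hold both genotypes, the Insig1 difference was 0.09, -0.64 and -0.43, and that of Msmo1 0.17, -0.75 and -0.41. The standard errors of these differences ran from 0.0963 for Ebp to 0.328 for Scd1, and differences of that size were not detectable with 4 samples a genotype.

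The larger pattern in these genes lay between samples of the same genotype. Of the 17 sterol enzymes, 15 were highest in replicate 4 among the 4 Cdk6-/- samples, where 29.7% of all genes were highest in that sample. Among the 4 Cdk6-K43M samples 16 of 17 were highest in replicate 1, where 21.1% of all genes were. Tm7sf2 was the exception in both, and Dhcr7, highest in Cdk6-/- replicate 1, the other in Cdk6-/-. The lowest values fell to Cdk6-/- replicates 3 (10 of 17) and 2 (6 of 17), and to Cdk6-K43M replicates 2 (10 of 17) and 3 (5 of 17). Of all genes, 32.2% and 20% were lowest in those Cdk6-/- samples, and 26.4% and 22.4% in those Cdk6-K43M samples. The samples were ranked on the genes counted, so these counts are a description, and no test was made of them.

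**Figure D2:**
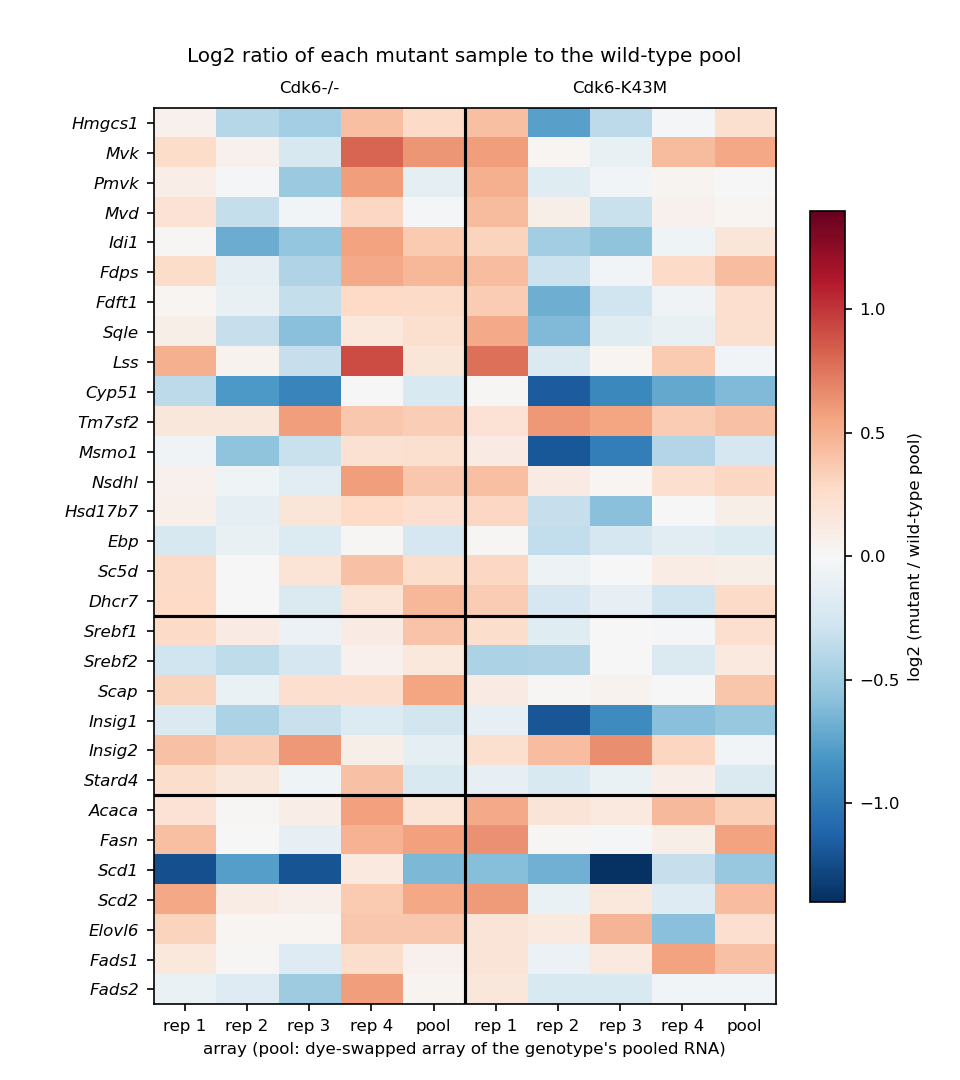
Log2 ratio to the wild-type pool (colour, red above and blue below the pool) of the 30 genes (rows) on the 10 arrays (columns, Cdk6-/- left and Cdk6-K43M right, each with its 4 samples and the dye-swapped pool). Most sterol enzymes were reddest in Cdk6-/- replicate 4 and Cdk6-K43M replicate 1, and Tm7sf2 was highest in other samples.

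The median log2 ratio of the 17 sterol enzymes was 0.083, -0.11, -0.31 and 0.38 in Cdk6-/- replicates 1 to 4. It was 0.35, -0.30, -0.17 and -0.0053 in Cdk6-K43M replicates 1 to 4. The medians of all genes lay between -0.018 and 0.0070 on these arrays. In Cdk6-K43M replicate 1 all 17 enzymes were above the pool and in Cdk6-/- replicate 4, 16 of 17, against 3 of 17 in Cdk6-/- replicate 3 and 4 of 17 in Cdk6-K43M replicate 2. The 7 fatty acid enzymes had medians of 0.20, 0.014, -0.12 and 0.38 in Cdk6-/- and 0.19, -0.082, 0.13 and -0.035 in Cdk6-K43M. In Cdk6-/- 6 of 7 were highest in replicate 4 (29.7% of all genes) and 5 of 7 lowest in replicate 3 (32.2%). In Cdk6-K43M 4 of 7 were highest in replicate 1 (21.1% of all genes) and 4 of 7 lowest in replicate 3 (22.4%). The difference between the genotypes was not tested. The 6 control genes had 3 of 6 highest in each of these samples, and Insig2 was lower in Cdk6-/- replicate 4 than in replicates 1 to 3. Insig2 and Tm7sf2 were both lowest of the Cdk6-K43M samples in replicate 1.

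**Figure D3:**
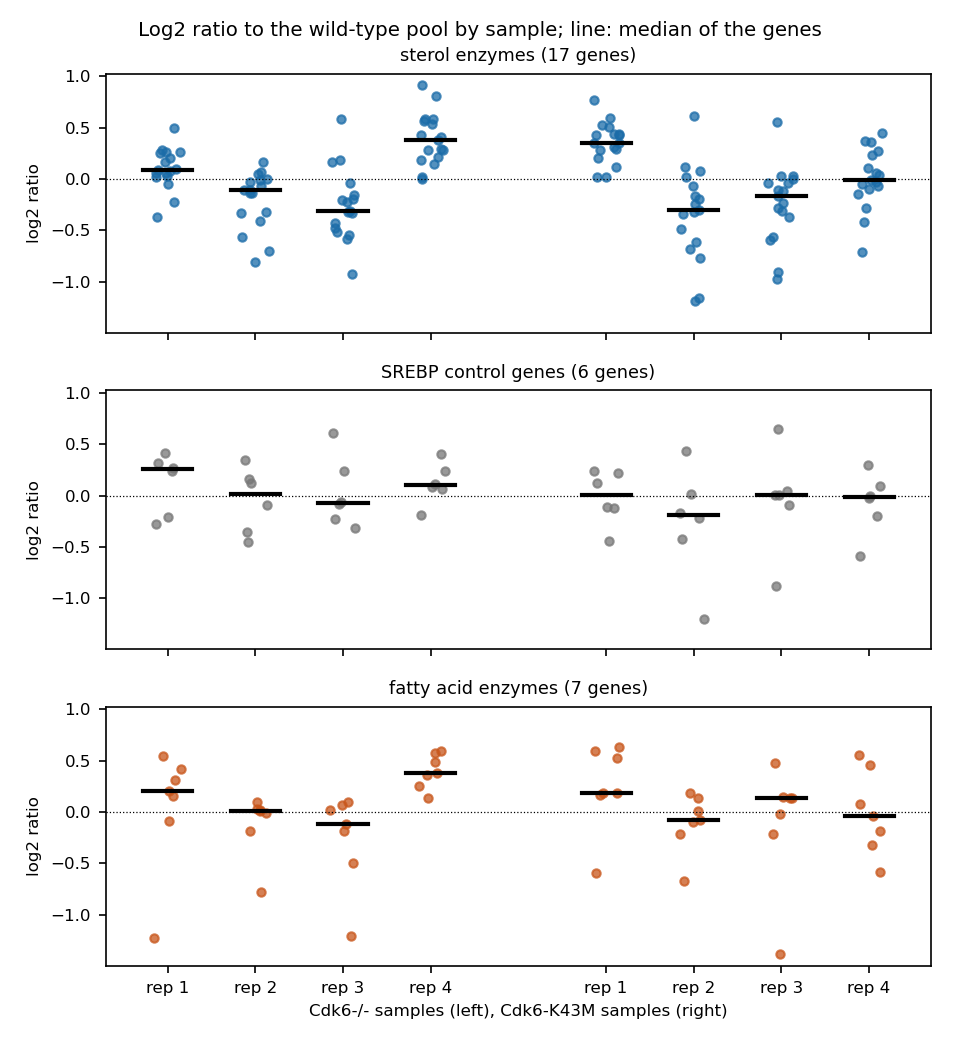
Log2 ratio to the wild-type pool (y axis) of each gene (points, spread sideways for sight only) in the 8 single samples (x axis), for sterol enzymes, SREBP control genes and fatty acid enzymes. Lines are the medians of the genes, which for the sterol enzymes run from -0.31 to 0.38 in Cdk6-/- and from -0.30 to 0.35 in Cdk6-K43M.

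The spread was larger than that of most genes. The median residual SD of the 17 sterol enzymes was 0.35, above that of 91.8% of all genes, whose median was 0.146. For the fatty acid enzymes it was 0.282 (86.8% of genes lower) and for the control genes 0.175 (64.6%). Hmgcs1 (0.431), Cyp51 (0.435), Msmo1 (0.442), Lss (0.448), Idi1 (0.462) and Scd1 (0.514) had the largest values, above those of 94.7 to 96.4% of genes. Ebp (0.124), Sc5d (0.153) and Tm7sf2 (0.18) had the lowest of the sterol enzymes.

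**Figure D4:**
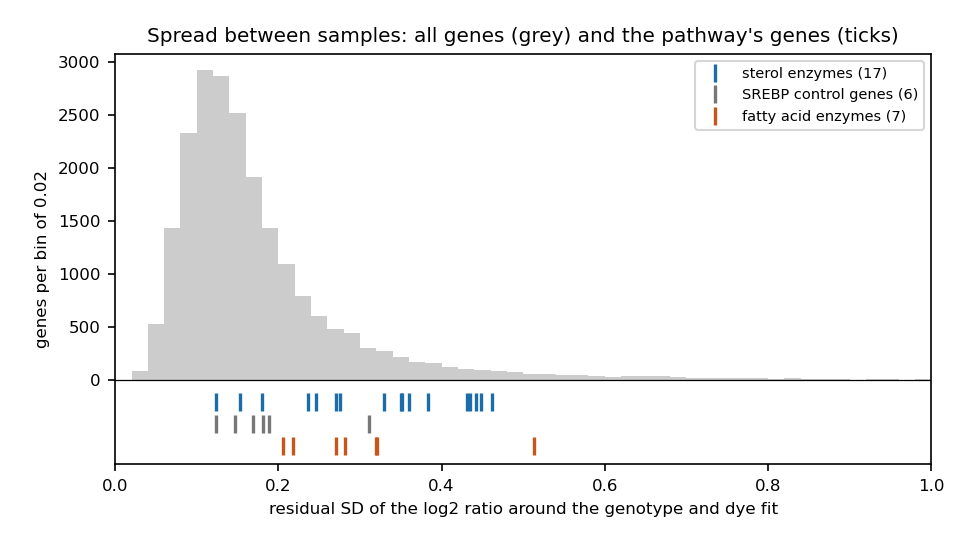
Histogram of the residual SD of log2 ratios around the genotype and dye fit (x axis) over all 22012 genes (y axis, genes per bin; values above 1 not drawn), with ticks below the axis for the 17 sterol enzymes, 6 SREBP control genes and 7 fatty acid enzymes. Most sterol enzyme ticks lie to the right of the bulk of genes, with a median of 0.35 against 0.146.

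Samples of the same genotype that share a slide differed as well. On slide 2 Cdk6-/- replicates 4 and 3 differed by a median of 0.73 (1.66-fold) over the sterol enzymes, with 16 of 17 higher in replicate 4, where 51.6% of all genes were higher. All 7 fatty acid enzymes were higher in replicate 4, by a median of 0.48. Of the sterol enzymes, 11 of 17 had a difference above that of 90% of all genes, from Msmo1 (0.53) to Mvk (1.04) and Lss (1.23), and Scd1 differed by 1.35. On the same slide Cdk6-K43M replicates 4 and 2 differed by a median of 0.42 (1.34-fold), with 14 of 17 higher in replicate 4, where 50.4% of all genes were, and 9 of 17 had a difference above that of 90% of all genes. On slide 1, Cdk6-K43M replicate 1 was above Cdk6-/- replicate 1 for 17 of 17 sterol enzymes (median 0.27), and on slide 3 Cdk6-K43M replicate 3 was above Cdk6-/- replicate 2 for 8 of 17 (median -0.0064). On slide 2, with 2 samples a genotype, the Cdk6-K43M mean was above the Cdk6-/- mean for 1 of 17 (median -0.21). Slides 1 and 3 hold 1 sample of each genotype, and these values were not tested.

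**Figure D5:**
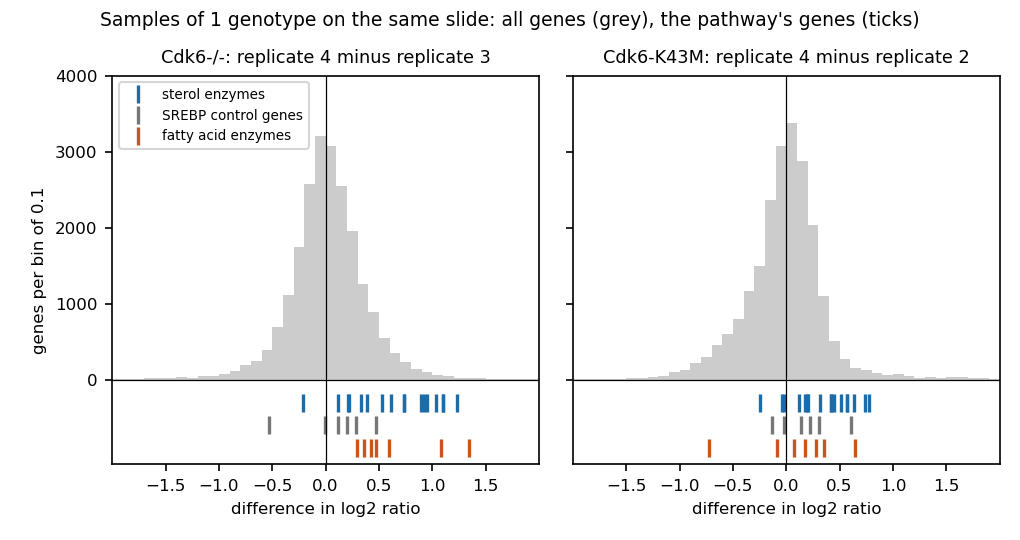
Difference in log2 ratio (x axis) between samples of the same genotype on the same slide, as a histogram over all genes (y axis, genes per bin; differences beyond 2 not drawn) with ticks for the sterol enzymes, SREBP control genes and fatty acid enzymes. The sterol enzyme ticks lie mostly above 0 in both panels, with medians of 0.73 in Cdk6-/- and 0.42 in Cdk6-K43M.

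Other gene groups also differed between these samples. Of 14 cell cycle genes, 10 were lowest in Cdk6-/- replicate 3 and 13 in Cdk6-K43M replicate 2, the samples in which 10 of 17 sterol enzymes were lowest. Of all genes, 32.2% and 26.4% were lowest in these 2 samples. The cell cycle genes were highest in Cdk6-/- replicate 4 for 8 of 14 and in Cdk6-K43M replicate 3 for 10 of 14. Of all genes, 29.7% and 24.9% were highest there. No cell cycle gene was highest in Cdk6-K43M replicate 1, where 21.1% of all genes were. The medians of the cell cycle genes were -0.44, -0.33, -0.53 and -0.27 in Cdk6-/- and -0.37, -0.61, -0.24 and -0.31 in Cdk6-K43M. The 13 kept myeloid markers had medians of -1.09, -0.50, -0.54 and -0.67 in Cdk6-/- and -0.56, -0.36, -0.74 and -0.030 in Cdk6-K43M, and the 10 B-lineage markers medians from 0.14 to 0.32 and from 0.037 to 0.33. The myeloid medians include S100a8, Camp, Mpo and Ngp, whose mutant values lie mostly near background. The 3 samples with low Eif2s3y had sterol enzyme medians of -0.11, -0.31 and -0.30, and the other 5 medians from -0.17 to 0.38. The part of cell cycle, cell makeup or the source of a sample in the order of the sterol enzymes was not tested. Without the 3 samples, 1 gene of the pathway was called in Cdk6-/- (Scap) and 3 in Cdk6-K43M (Tm7sf2, Scap and Insig1), and without Cdk6-K43M replicate 4 the counts were 1 and 3.

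A list of 47 further genes of lipid supply, sterol transport and SREBP processing was measured for 44. In Cdk6-/- 4 rose, 1 fell and 39 did not pass, and in Cdk6-K43M 9 rose, 2 fell and 33 did not pass, or 11.4% and 25% of those measured, where all genes had 7.24% and 20.1%. Por, the reductase that gives electrons to Cyp51 and other P450 enzymes, had 0.87, 0.88, 0.80 and 1.07 in Cdk6-K43M and 0.56, 0.23, 0.28 and 0.66 in Cdk6-/-. All 4 Cdk6-K43M samples lay above the 4 Cdk6-/- samples, yet the difference of 0.47 (SE 0.115) did not pass (adjusted p = 0.151 by limma). In this list the genotypes did not overlap for Hacd3, Mbtps2 and Nr1h2 either, and 8.17% of all genes had no overlap. The fitted level of Por was 1.81 times that of the pool in Cdk6-K43M (adjusted p = 0.000163) and 1.34 times in Cdk6-/- (adjusted p = 0.0164). Npc1, which exports cholesterol from lysosomes, rose 1.56-fold in Cdk6-/- (adjusted p = 0.0196), with 0.92, 0.70, 0.72 and 0.18, and 1.83-fold in Cdk6-K43M (adjusted p = 0.00154).

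Mylip, a ubiquitin ligase that lowers lipoprotein receptors, rose 1.47-fold in Cdk6-/- (adjusted p = 0.0146 by limma) and 1.45-fold in Cdk6-K43M (adjusted p = 0.00604). Acsl1, which activates long-chain fatty acids, fell in both mutants, to 0.76 times the pool in Cdk6-/- (adjusted p = 0.0306) and 0.637 times in Cdk6-K43M (adjusted p = 0.00121). Slc25a1, the citrate carrier that brings carbon for lipid synthesis out of mitochondria, rose 1.32-fold in Cdk6-K43M (adjusted p = 0.00125), with 0.40, 0.37, 0.22 and 0.53. Hacd3, a dehydratase of chain elongation, rose 1.24-fold in Cdk6-K43M (adjusted p = 0.00145), with values from 0.27 to 0.36. None of the 44 passed between the mutants. In this wider list 14 of 44 genes were highest in Cdk6-/- replicate 4 (29.7% of all genes) and 13 of 44 in Cdk6-K43M replicate 1 (21.1%).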

How the data were processed

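All 10 arrays, of a two-colour Agilent mouse design (probes placed on mm9, per the file headers), were used. The deposited scanner files hold spot intensities as median signals, which the authors extracted, per the file headers, with Agilent's Feature Extraction 11.5.1.1. The authors also deposited a loess-normalized table of log2 intensities, with a red and a green column for each array. Ratios were formed from it as red minus green, with the sign of swapped arrays turned. Over the genes tested, the array medians of these ratios ran from -0.039 to 0.021. The table was used as an alternative, with 68 ratios that are not numeric left out.

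From the intensities, limma 3.58.1 in R 4.3.3 gave normexp background correction (offset 50) and loess within arrays, with control spots at weight 0. Ratios of swapped arrays were turned, non-uniform spots were left out and spots of a probe were averaged. A probe was kept if well above background on at least 3 of the 4 single arrays of a genotype or in at least 5 wild-type channels, and the brightest kept probe stood for a gene. Genes were named through RefSeq accessions (GRCm38.p6). Each mutant was compared with the pool over all 10 arrays with a dye term, and the mutants with each other over the 8 single arrays, with lmFit, eBayes and Benjamini-Hochberg adjustment over 22012 genes. The pool is 1 control sample, and each swapped array counts RNA of the same 4 samples again. The fits were tested on simulated data with independent noise on each array. That simulation held no error of the shared pool and no repeated RNA on the swapped arrays, so it does not check the p-values for these. The number of arrays limits the precision.

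The genes and lists were chosen with earlier results of these data known. Given in full were genes past the threshold in any comparison, the 4 highest and 4 lowest by fitted change in each, and Srebf1, Srebf2, Scap, Insig1, Insig2, Hmgcs1, Sqle, Fasn, Acaca, Scd1 and Scd2. Of the other genes of the pathway, up to 4 a comparison with the smallest p were named. Alternatives changed the background correction, normalization, filter, probe rule, slide, dye term, pool error and replicates.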

Additional observations from a re-analysis of the deposited data

Results flagged for a closer look

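Fasn in Cdk6-K43M replicate 1 lay apart from the other samples of its genotype. Its log2 ratio was 0.64, where the other 3 samples lay between -0.015 and 0.080, and the gap was 0.854 of the whole range. It was the single sample to stand apart in 60 groups of 4 samples looked at (30 genes in each genotype), and chance flags about 1 in 20 groups. The same sample was highest of its genotype for 16 of 17 sterol enzymes and 4 of 7 fatty acid enzymes.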

How the results depend on the processing

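In Cdk6-/- against the pool, where 2 genes of the pathway were called, 1 was called with no background correction, with median centring in place of loess, in the deposited table, with no filter on dim probes, with the mean of a gene's probes, and without the 3 samples whose Eif2s3y was not above background (chosen after seeing the data). With slide as a block 4 were called, all higher, and with standard errors widened for the pool 0. Leaving out each sample in turn gave 1 to 3. In Cdk6-K43M, where 5 were called, 2 were called from Agilent's processed signals, 13 with median centring, 3 with no filter, 3 with the mean of probes, 0 with widened standard errors and 3 without the 3 samples, and leaving out each sample gave 3 to 8 (8 without Cdk6-/- replicate 4; 5 without Cdk6-K43M replicate 1, split 1 higher and 4 lower). The cause was not tested, other than that fewer samples or more genes enter some of these fits. Between the mutants limma called 0 of the 30 under every alternative listed, with 1 at an unadjusted p under 0.05. Over all genes it called 113, and 37 with the replicate number as a block. The replicate numbers carry no stated pairing, so they were not taken as pairs. Same-numbered samples had deviations correlated at 0.084, -0.066, 0.23 and 0.14, and 2 of 4 Cdk6-/- samples correlated best with their own number. The order of samples within a genotype held under the 7 alternatives of processing added after seeing the data: 15 of 17 sterol enzymes were highest in Cdk6-/- replicate 4 in each, and 16 in Cdk6-K43M replicate 1, or 14 with the mean of probes. No gene changed direction past the threshold. With 1 pool, 4 samples a genotype and an unknown origin of the samples, small changes were not detectable.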

Other observations

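The dye term of the fit had a median of -0.096 over the 17 sterol enzymes and of -0.010 over all genes, on the log2 scale. Probes of the same gene differed in size: the brighter and dimmer probes of Msmo1 had means over the 4 Cdk6-K43M samples of -0.61 and -0.17, and those of Tm7sf2 0.43 and 0.28. The dimmer probe of Fads1 was not kept.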
